A study of Schizosaccharomyces pombe with 3 samples.

Results

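The genes described here are those of DNA repair and DNA replication in fission yeast (Schizosaccharomyces pombe) whose array names begin with rad, mcm, orc, pol, rfc or rhp followed by a digit. These prefixes gave 88 of the 10240 feature names on the arrays. Of these names 3 intergenic ones, for mcm6, mcm7 and rfc1, are marked as missing from the array, which left 85 features of 47 genes: 43 intergenic features and 42 features of open reading frames (ORFs). Under these names both kinds were present for 38 genes, the intergenic feature alone for 5 and the ORF feature alone for 4. The rule used names and no measured value.

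The study precipitated chromatin from cells that carry Tup11 tagged with green fluorescent protein (Tup11-GFP), with an antibody against the tag. The cells were harvested in mid-log growth in YES, a rich medium, and the labels give no other allele, strain or treatment. Precipitated DNA and input DNA were amplified, labelled and hybridised together on spotted arrays of intergenic and ORF products. All 3 arrays, replicates 1 to 3, form 1 group, and no array of an untagged strain was used here, so each value below compares precipitate with input and not a bound state with an unbound one. The array titles place replicates 1 and 2 in the series E120D and replicate 3 in the series F060D.

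Tup11 is the fission yeast relative of the budding yeast corepressor Tup1. It does not bind DNA by itself and is brought to promoters by sequence-specific repressors, where it acts with Tup12 and Ssn6 to keep genes of carbon use, iron uptake and stress low. The genes named rad were found through mutants sensitive to radiation, and those named rhp by their likeness to RAD genes of budding yeast. They act in checkpoint signalling, nucleotide excision repair, homologous recombination and post-replication repair. The orc, mcm, pol and rfc genes encode the origin recognition complex, the replicative helicase, DNA polymerases and the clamp loader.

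In the direction taken as likely, limma called 1 of the 24 member ORFs tested above the array median and 4 below. Over all ORF features 2.27% were called above and 15.4% below, so these counts lie near the general shares. The coding region of rhp14, an excision repair gene, was high on all 3 arrays, and so was the gap that follows it and leads to uvi15, a gene named for its induction by ultraviolet light. The coding regions of rfc4, rhp26, mcm6 and rhp54 were low. None of the 9 intergenic features measured on all arrays passed the test, beside 21.6% of all intergenic features called above and 1.87% below. With 9 tested, a count of 0 says little. Of all 33 members tested 8 had an unadjusted p under 0.05 in limma, all of them ORFs, beside 1414 of all 4285 features. A gap upstream of rad24 stood high on replicate 3 alone.

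Windows of 250 bases from member gaps are shown here in the direction of the gene named, 5′ to 3′, from the RefSeq assembly ASM294v3. They were taken by their ratio on replicate 3. The rad24 gap did not pass the limma test, and the rad16 gap, with no ratio on replicate 2, was not in that test. The first lies directly before the annotated transcript start of rad24, at chrI:3383977-3384226 on the plus strand, in the member gap with the highest ratio on replicate 3. The second lies directly before the transcript start of rad16, at chrIII:518098-518347 on the minus strand, in the member gap with the lowest ratio on that array. No other annotated messenger RNA overlaps them.
rad24: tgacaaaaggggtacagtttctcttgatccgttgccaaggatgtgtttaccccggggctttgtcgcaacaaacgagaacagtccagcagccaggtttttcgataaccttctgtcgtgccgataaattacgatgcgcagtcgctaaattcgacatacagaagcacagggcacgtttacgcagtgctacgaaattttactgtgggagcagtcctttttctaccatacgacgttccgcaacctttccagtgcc
rad16: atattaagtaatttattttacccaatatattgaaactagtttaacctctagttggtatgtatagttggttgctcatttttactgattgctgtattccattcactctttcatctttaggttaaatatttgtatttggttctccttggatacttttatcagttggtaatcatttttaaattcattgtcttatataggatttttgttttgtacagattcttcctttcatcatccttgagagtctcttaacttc
The rad24 window was rich in G and C, at 48.8%, and 99.7% of the 5144 windows of this length and position in the genome held less. The rad16 window had 28.4%, beside a genome median of 32.0%. All letters are in lower case because none of 3 searched motifs was found on either strand of these windows. The motifs were ACGCGT, the MluI cell cycle box bound by the MBF complex at genes of S phase; TGACGT, the core of the site of ATF/CREB factors such as Atf1; and CCCCTC, the core of a stress element bound by Rst2. No 2 of these motifs overlap in these windows. Directly before the transcript starts of the 47 genes, ACGCGT was found for 3 genes, rad25 and rad4 among them, which is 6.38% beside 2.62% of all 5144 windows. On replicate 3 the intergenic log2 ratios were 0.01 for rad25 and -1.003 for rad4. TGACGT was found for rad2 alone, 2.13% beside 5.54% of all windows, and CCCCTC for none, beside 1.69%.

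Values are log2 of the precipitate signal over the input signal, with each array's median over all features set to 0. The scanner tables name their channels A and B and do not say which dye each letter holds. The precipitate was taken as channel B on replicates 1 and 2 and as channel A on replicate 3, because the deposited value tables follow those channels (r = 0.9995, 0.987 and 0.997 with the log10 of the median signal less its background, across spots). That direction is likely and not stated by any label. In it replicates 1 and 2 correlated across features at r = 0.72, replicates 1 and 3 at 0.54, and replicates 2 and 3 at 0.38, while the same letters on all arrays gave -0.54 and -0.38 for the pairs with replicate 3. With the same letters, limma called 0 of 4285 features (148 at an unadjusted p under 0.05). The 5 members called with all arrays also passed without replicate 3, where its direction plays no part. Their limma adjusted p-values ran from 3.99e-05 for rfc4 to 0.0227 for rhp14. That fit reuses replicates 1 and 2, which entered the calls, so it is no separate support. In it limma called 421 of all 4285 features above and 874 below.

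The arrays differed in how much of these genes they measured. Replicate 3 gave a ratio for 84 of the 85 features, replicate 1 for 60 and replicate 2 for 34. Precipitate signal without input signal left 20 features of replicate 1 and 38 of replicate 2 with no ratio. All 3 arrays measured 33 features, 24 ORFs and 9 intergenic ones. On replicate 3 the precipitate signal of all 84 measured features exceeded the 95th percentile of the empty spots, but on replicate 1 it did so for 20 of the 85 features and on replicate 2 for 14. Among the 33 features tested the numbers were 12 on replicate 1 and 2 on replicate 2, and the ORF of rfc1 alone exceeded the empty spots on every array. Across members the ratio ran against the input signal with Spearman rho of -0.81 on replicate 1 (60 features), -0.93 on replicate 2 (34 features) and -0.26 on replicate 3 (84 features). The same input signal stands in both quantities, and over all features the values were -0.79, -0.81 and -0.16. The part of input brightness in the calls below was not tested. Spots of a member printed in duplicate differed by a median of 0.19 on replicate 1, 0.34 on replicate 2 and 0.08 on replicate 3.

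**Figure D1:**
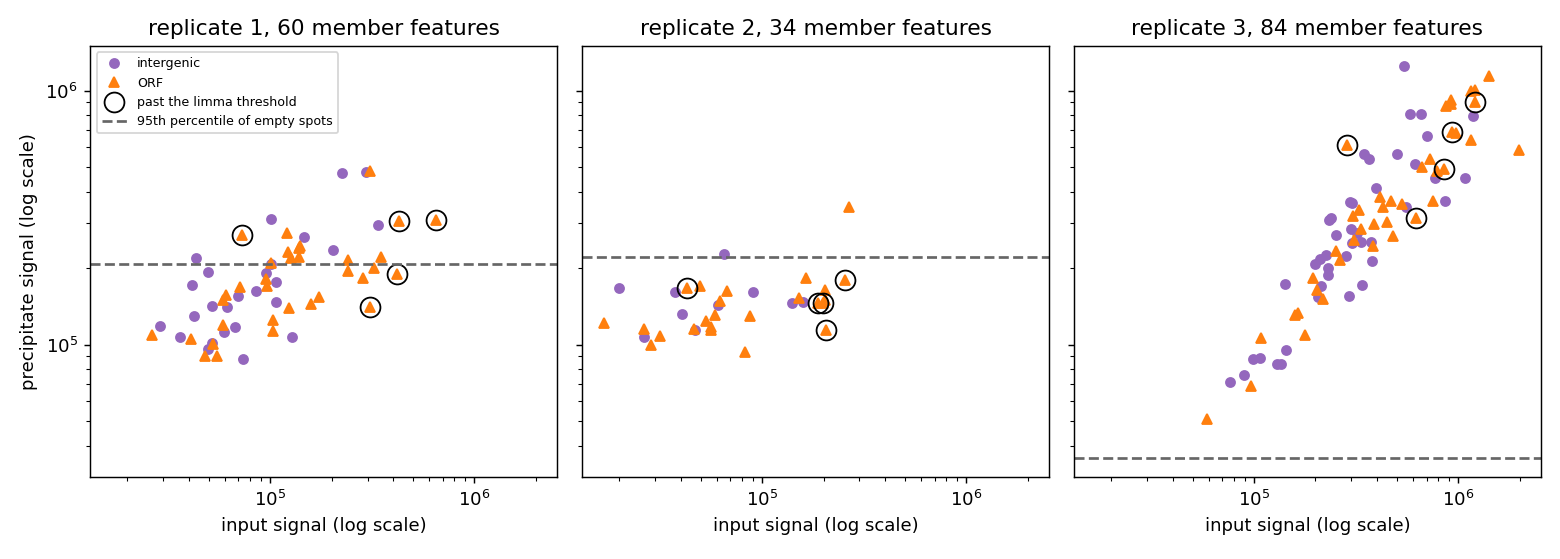
Precipitate signal (log axis) against input signal (log axis) of each member feature on replicates 1 to 3, circles for intergenic and triangles for ORF features, with the 95th percentile of the empty spots dashed. On replicates 1 and 2 the precipitate signal stays within a narrow band near the empty spots while input varies, and on replicate 3 both vary together, with all 84 features above the empty spots. Open circles mark the 5 features past the limma threshold.

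The first comparison asked which members stood above or below the array median. limma called 1 of the 24 ORF features above and 4 below, and 0 of the 9 intergenic features in either direction. Over all ORF features tested 2.27% were called above and 15.4% below. Over all intergenic features 21.6% were called above and 1.87% below. The ORF counts lie near those shares, and with 9 intergenic features tested a count of 0 above says little beside 21.6%. limma's standard error was the same for every feature, 0.357, because its prior absorbed each feature's own variance, so the SD over the 3 arrays is given beside each mean.

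**Figure D2:**
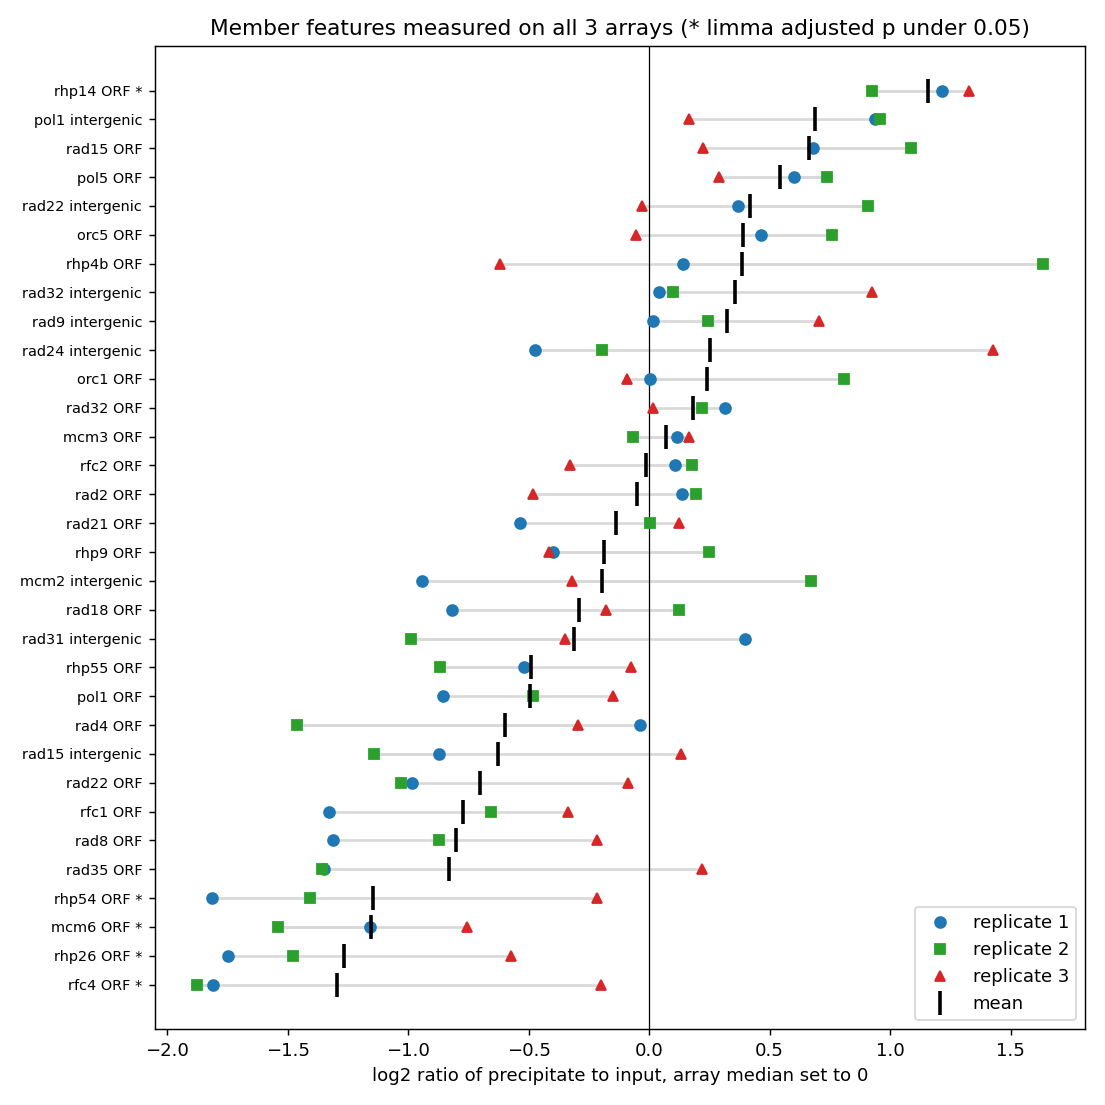
Log2 ratio of precipitate to input (x axis, array median at 0) of the 33 member features measured on all 3 arrays, 1 symbol per replicate and a bar at the mean, ordered by mean, with 1 gene not drawn. Asterisks mark the 5 ORF features with a limma adjusted p under 0.05. rhp14 stands at the top with its 3 values between 0.92 and 1.33, and among the low ORFs replicate 3 lies nearer 0 than the other arrays.

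Among the genes of nucleotide excision repair, rhp14 encodes the relative of human XPA, which binds damaged DNA. Its ORF feature (SPBC649.03, chromosome II, 536985 to 537854, plus strand, ASM294v3) had log2 ratios of 1.22, 0.92 and 1.33 on replicates 1 to 3. All 3 arrays were high, with a mean of 1.16 ± 0.21 (SD, n = 3) and a limma adjusted p of 0.0106. On replicate 3 it stood at percentile 97.8 of ORF features. With replicate 3 turned, that is, given the same letters as the other arrays, the mean was 0.27. The call was lost without replicate 1 (limma adjusted p = 0.287), with input at 0 set to a low signal (0.303) and with the local background subtracted a second time (0.063). Its input signal was dim on replicates 1 and 2, at percentiles 19.1 and 9.57 of ORF features, and at percentile 26.8 on replicate 3.

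The features next to rhp14 were not alike on its sides. The gap that follows rhp14 and leads to uvi15 (chromosome II, 537855 to 539417) had 1.13, 1.08 and 1.29, a mean of 1.17 ± 0.11 (limma adjusted p = 0.00970). The ORF of uvi15 itself had 1.19 on replicate 1 and 0.67 on replicate 3 and no ratio on replicate 2. Beyond it the gap before cut12 had -0.29, -0.23 and 0.43. The gap before rhp14 had a ratio on replicate 3 alone, -0.18, and the ORF before that, of the ribosomal protein gene rps1902, had -1.001, -0.48 and 0.26. In the gap before rps1902 the feature named for that gene had 1.25 on replicate 1 and -0.11 on replicate 3, so it was high on 1 of its 2 arrays. The feature of the same gap named for klp6 had -0.85, -0.93 and -0.03 on replicates 1 to 3. The features above the array median on every array that measured them were rhp14, the gap after it and uvi15. The annotation also lists a non-coding RNA on the minus strand across rhp14 and part of the gap. Which bases of these gaps the printed products cover is not known here.

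**Figure D3:**
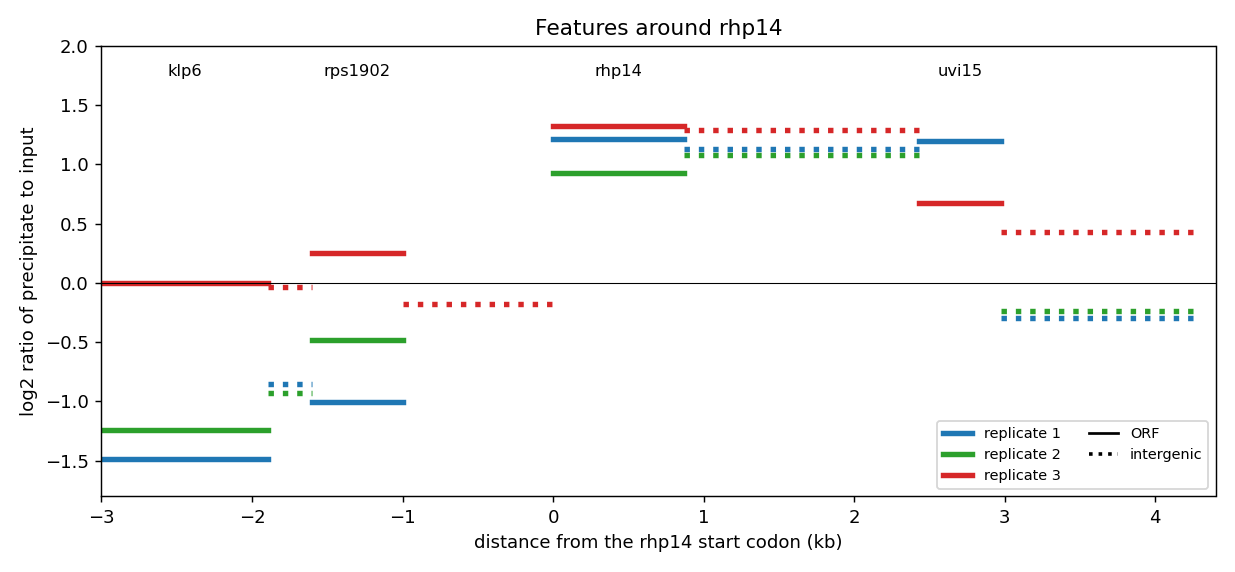
Log2 ratio (y axis) of the features around rhp14 on each array, drawn over their annotated extent as distance in kb from the rhp14 start codon (x axis), solid for ORFs and dotted for intergenic features. The rhp14 ORF and the gap after it lie between 0.92 and 1.33 on all 3 arrays, and the gap before rhp14, measured on replicate 3 alone, lies at -0.18. The second intergenic feature of the klp6 gap is not drawn.

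rhp26 encodes the relative of human CSB, which couples excision repair to transcription. Its ORF (SPCP25A2.02c, chromosome III, 1179636 to 1182557) had -1.75, -1.48 and -0.58, a mean of -1.27 ± 0.61 (limma adjusted p = 0.00460). All 3 arrays were low, replicate 3 least so. Its intergenic feature had 1.25 on replicate 1 and 0.33 on replicate 3, above the ORF on both.

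rad15 encodes the XPD-type helicase of the transcription factor TFIIH. Its ORF had 0.68, 1.09 and 0.23, a mean of 0.66 ± 0.43 that did not pass (limma adjusted p = 0.176). Its intergenic feature, in a gap of 5949 bases shared with lkh1, had -0.87, -1.14 and 0.13, a mean of -0.63 ± 0.67 (adjusted p = 0.208). rhp4b, or rhp42, encodes a relative of the damage sensor XPC. Its ORF was uneven over the arrays at 0.14, 1.64 and -0.62, a mean of 0.39 ± 1.15 (adjusted p = 0.473).

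The other excision repair features were measured mainly on replicate 3. The gap before rad16, which encodes the XPF nuclease subunit, had -1.03 there, the lowest of the 43 member gaps and at percentile 0.243 of all intergenic features, while replicate 1 gave 0.25. The feature named for prp11, on the other side of the same gap, had 0.40 on replicate 3. The gap before rhp4a, or rhp41, the second XPC relative, had 0.63. On replicate 3 the 8 excision repair gaps ranged from -1.03 to 0.63, with a median of -0.11, and 3 lay above 0. The median of all intergenic features there was 0.15, and a ratio of -0.05, that of the rhp23 gap, stood at percentile 34.0.

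Homologous recombination repairs broken DNA from an intact copy. rhp54 encodes the Rad54 translocase, which remodels DNA during strand exchange. Its ORF (SPAC15A10.03c, chromosome I, 3680587 to 3683145) had -1.81, -1.41 and -0.22, a mean of -1.15 ± 0.83 (limma adjusted p = 0.0115). Replicates 1 and 2 were low and replicate 3 was close to the array median. The ORF of rad22, the Rad52 relative, had -0.98, -1.03 and -0.09, a mean of -0.70 ± 0.53 that did not pass (adjusted p = 0.152). The gap before rad22 had 0.37, 0.91 and -0.03, a mean of 0.42 ± 0.47 (adjusted p = 0.434).

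rad32 encodes the Mre11 nuclease. The gap it shares with mug121 had 0.04, 0.10 and 0.92 in the feature named for rad32, a mean of 0.35 ± 0.49 (adjusted p = 0.514). The feature of the same gap named for mug121 had 1.499 on replicate 1 and 1.22 on replicate 3. A further feature listed as a long intergenic product of rad32 falls outside the prefix rule by its spelling and had -0.41, 0.73 and 0.07. The gaps before rhp55 and rhp57, which encode mediators of strand exchange, had -0.54 and -0.61 on replicate 3. On replicate 1 the rhp57 gap had 0.25 and the rhp55 gap had no ratio. The 6 recombination gaps had a median of -0.07 on replicate 3, beside 0.15 for all intergenic features.

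Checkpoint genes sense damage and stop the cell cycle. rad24 encodes a 14-3-3 protein that binds phosphorylated checkpoint partners. The gap before it (SPAC8E11.02c, chromosome I, 3383405 to 3384267) had -0.47, -0.20 and 1.43, a mean of 0.25 ± 1.03 (limma adjusted p = 0.656). Replicate 3 alone was high, and there the feature stood at percentile 92.6 of intergenic features and highest of the 43 member gaps. Its ORF had 0.23 on replicate 1 and -0.07 on replicate 3, and the gap before its neighbour dmc1 had 0.26 on replicate 1 and -0.50 on replicate 3.

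rad9 encodes a subunit of the checkpoint clamp that also holds Rad1 and Hus1. The gap before rad9 had 0.02, 0.24 and 0.71, above 0 on each array, with a mean of 0.32 ± 0.35 (adjusted p = 0.556). The gap before rad1 had 0.27 on replicate 1 and 0.63 on replicate 3, and the rad1 ORF gave no ratio on any array. rad4, also known as cut5, encodes a scaffold of checkpoint and replication initiation. The gap before rad4 went apart on the arrays that measured it, with 1.55 on replicate 1 and -1.003 on replicate 3, and the feature named for spt5 in the same gap had 0.31 on replicate 3. The gap of rad3, the ATR kinase, had 0.88 and 0.48 on replicates 1 and 3. The 9 checkpoint gaps ranged from -1.003 to 1.43 on replicate 3, 7 of them above 0, with a median of 0.13. The median of all intergenic features there was 0.15, and a ratio of 0.01, that of the rad25 gap, stood at percentile 38.9.

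Post-replication repair lets replication pass damage. rhp6 encodes its ubiquitin-conjugating enzyme, and the gap before rhp6 had 0.33 on replicate 1 and 0.78 on replicate 3. rad8 encodes a ubiquitin ligase with a helicase domain. Its ORF had -1.31, -0.87 and -0.22, low on each array, with a mean of -0.80 ± 0.55 that did not pass (limma adjusted p = 0.0948). The gap before rad8 had 0.18 and 0.22 on replicates 1 and 3.

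Several members act in chromosome structure or elsewhere. rad35, or dfp1, encodes the regulatory subunit of the Hsk1 kinase that fires origins. Its ORF had -1.35, -1.36 and 0.22, a mean of -0.83 ± 0.91 (adjusted p = 0.0815), so replicate 3 went against the other arrays. The gap of this gene, which the array names for dfp1 and the rule leaves out, had -0.33, 1.13 and -0.84. The mean of that gap was -0.02 ± 1.03 (limma adjusted p = 0.981). rad21 encodes the cohesin subunit that closes the ring, and its gap had 0.97 on replicate 1 and 0.52 on replicate 3. rad18, or smc6, encodes a subunit of the Smc5-Smc6 complex, with 1.29 and 0.27 in its gap on the same arrays. rad31 encodes a subunit of the enzyme that activates the modifier SUMO, and its gap had 0.40, -0.99 and -0.35, a mean of -0.31 ± 0.69 (adjusted p = 0.570).

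Among replication genes, mcm6 encodes a subunit of the MCM helicase. Its ORF (SPBC211.04c, chromosome II, 3880318 to 3882996) had -1.16, -1.54 and -0.76, a mean of -1.15 ± 0.39 (limma adjusted p = 0.0108). It was low on all 3 arrays and had the smallest SD of the 4 low ORFs. The ORF of mcm3 had 0.12, -0.07 and 0.17, a mean of 0.07 ± 0.12, and that of mcm7 had 0.67 on replicate 1 and 0.14 on replicate 3. The 245-base gap that mcm2 shares with mlo2 had -0.94, 0.67 and -0.32, a mean of -0.20 ± 0.81 (adjusted p = 0.734). The 3 helicase gaps measured on replicate 3 lay between -0.37 and -0.04.

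The clamp loader opens the ring that holds polymerases on DNA. rfc4 encodes one of its small subunits. The rfc4 ORF (SPAC1687.03c, chromosome I, 905129 to 906355) had -1.81, -1.88 and -0.20, a mean of -1.30 ± 0.95 (limma adjusted p = 0.00361), the lowest mean of the 33 members tested. Replicates 1 and 2 were low and replicate 3 was near the array median, at percentile 42.8 of ORF features. The gap before rfc4 had 1.41 on replicate 1 and 0.52 on replicate 3. The large subunit gene rfc1 had -1.33, -0.66 and -0.34 in its ORF, a mean of -0.77 ± 0.51 that did not pass (adjusted p = 0.107). On replicate 3 all 4 measured clamp loader ORFs lay below 0, from -0.82 for rfc5 to -0.20 for rfc4. The median of all ORF features there was -0.12, and a ratio of -0.009, that of the orc2 ORF, stood at percentile 61.3. The rfc2 ORF had 0.11, 0.18 and -0.33 on replicates 1 to 3, and that of rfc5 had -0.83 on replicate 1. The gaps before rfc3 and rfc5 had -0.75 and -0.69 on replicate 3. On replicate 1 the rfc3 gap had 0.12 and the rfc5 gap had no ratio.

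The 4 low ORFs had bright input. Their input signals stood at percentiles 85.2 to 98.4 of ORF features on replicate 1, 86.2 to 93.3 on replicate 2 and 71.4 to 93.9 on replicate 3. With intensity-dependent centring (loess) their means were -0.71 to -0.91 and none passed (limma adjusted p of 0.0504 to 0.106). Without replicate 1 or without replicate 2 none of the 4 passed either. Without replicate 3 all 4 passed, with means of -1.35 for mcm6, -1.84 for rfc4 and -1.61 for rhp26 and rhp54 (limma adjusted p of 3.99e-05 to 0.00328). In that fit 8 member ORFs in all were called below, beside 874 of all 4285 features. With all arrays the counts were 4 member ORFs and 451 of all 4285 features. The means ran from -1.16 to -0.65 when replicate 3 was turned to the same letters.

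None of the polymerase and origin features tested passed. pol1 encodes the catalytic subunit of DNA polymerase alpha, which lays down primers. The 328-base gap that it shares with the ribosomal protein gene rpl702 had 0.94, 0.96 and 0.17, a mean of 0.69 ± 0.45 (limma adjusted p = 0.160), the highest of the 9 intergenic members tested. The pol1 ORF had -0.86, -0.48 and -0.15, a mean of -0.50 ± 0.35 (adjusted p = 0.341). pol5, whose budding yeast counterpart serves the making of ribosomal RNA, had 0.60, 0.74 and 0.29 in its ORF, a mean of 0.54 ± 0.23 (adjusted p = 0.290).

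The origin recognition genes orc1 and orc5 encode subunits of the complex that marks start sites of replication. The orc1 ORF had 0.00, 0.81 and -0.09, a mean of 0.24 ± 0.50 (adjusted p = 0.672), and the orc5 ORF had 0.47, 0.76 and -0.05, a mean of 0.39 ± 0.41 (adjusted p = 0.469). The 5 origin recognition gaps had a ratio on replicate 3 alone, from -0.44 for orc2 to 0.52 for orc6, with 2 above 0. The median of all intergenic features there was 0.15, and a ratio of -0.01, that of the orc1 gap, stood at percentile 36.6.

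**Figure D4:**
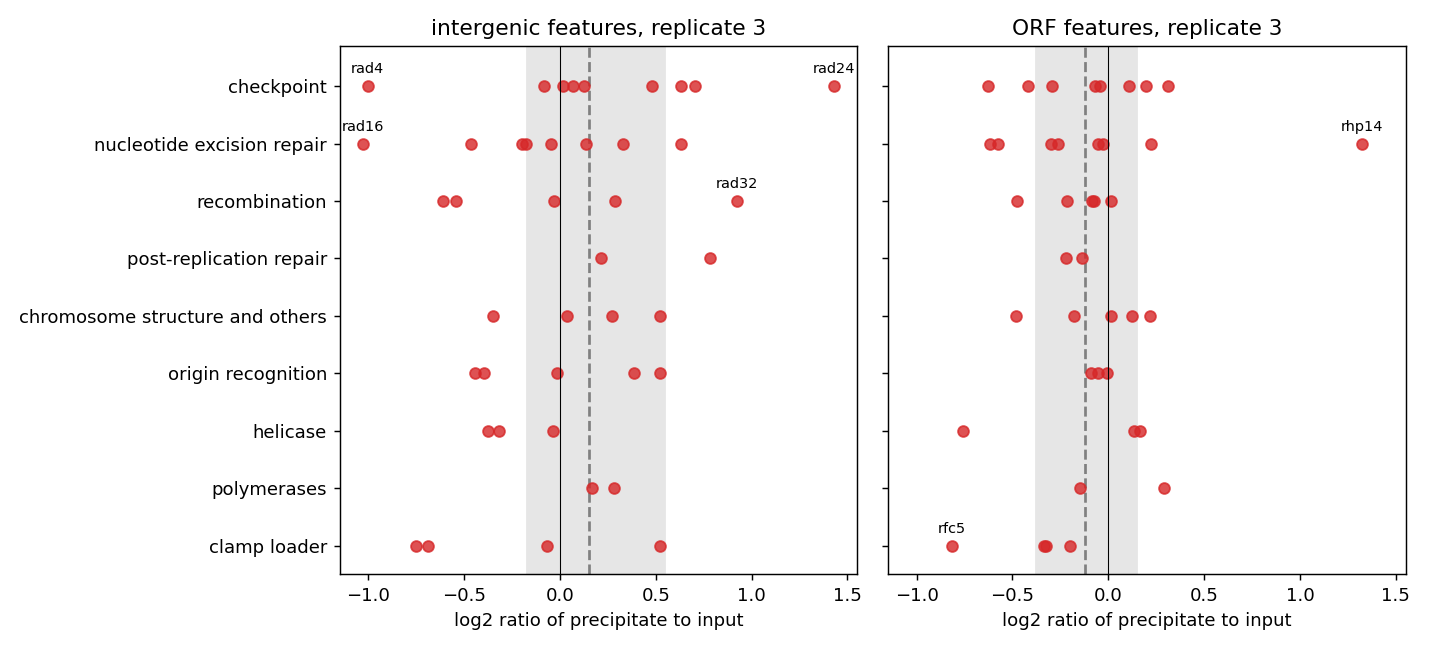
Log2 ratio on replicate 3 (x axis) of 43 intergenic (left) and 41 ORF member features (right), 1 point per feature, by role, with 1 gene not drawn. The shaded band is the range from the first to the last quartile of all features of that kind and the dashed line is their median. Intergenic members spread around a median of 0.01, beside 0.15 for all intergenic features, and rad24 and rhp14 stand to the right of the bands.

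As a group, the member gaps were not higher than other gaps. The medians of the 9 member gaps measured on all arrays were 0.04, 0.24 and 0.13 on replicates 1 to 3, a mean of 0.14 ± 0.10 (SD, n = 3 arrays). All 1548 intergenic features so measured had 0.16, 0.47 and 0.29, a mean of 0.31 ± 0.16. The 24 member ORFs had -0.46, -0.03 and -0.16, a mean of -0.22 ± 0.22, and all 2737 ORF features had -0.77, -0.30 and -0.12, a mean of -0.40 ± 0.34. The summary matters for the gaps. The median of each feature's mean over the arrays was 0.322 for the 9 member gaps and 0.323 for all 1548. For ORFs it was -0.24 for members and -0.39 for all. Over everything measured on replicate 3, the 43 member gaps had a median of 0.01 and all 4945 intergenic features 0.15. The 41 member ORFs had -0.09 and all 5000 ORF features -0.12. The difference between members and other features was described and not tested.

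The authors' rule for a binding list, per the labels' protocols, takes features whose median percentile rank over the arrays reaches the 85th percentile. Applied to the ratios here, it listed 1 of the 24 member ORFs, rhp14 at percentile 89.4, and 0 of the 9 member gaps. It listed 2.48% of all ORF features and 23.8% of all intergenic features measured on all arrays. The pol1 gap came nearest below the limit, at percentile 82.4.

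The second comparison set the intergenic feature of a gene against its ORF feature on the same array. Of 752 genes with both features on all arrays, 31.4% had the gap above the ORF by limma and 1.06% below. Among members 4 genes could be tested. For pol1 the differences were 1.79, 1.44 and 0.32, a mean of 1.18 ± 0.77 (limma adjusted p = 0.0465), with the gap above the ORF on all 3 arrays. For rad15 they were -1.55, -2.23 and -0.09, a mean of -1.29 ± 1.09 (adjusted p = 0.0440), with the gap below. For rad22 they were 1.35, 1.94 and 0.06, a mean of 1.12 ± 0.96 that did not pass (adjusted p = 0.0648), and for rad32 -0.27, -0.12 and 0.91, a mean of 0.17 ± 0.64 (adjusted p = 0.766). Both calls were lost without replicate 1 or without replicate 2. Without replicate 3 both passed, at 1.62 for pol1 (limma adjusted p = 0.00293) and -1.89 for rad15 (0.00046). Under loess the differences were 0.44 for pol1 and -0.48 for rad15. With replicate 3 turned limma called 0 of the 752 genes in either direction, with 9 at an unadjusted p under 0.05.

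On replicate 3 the gap stood above the ORF for 23 of 37 member genes, 62.2%, beside 71.9% of 4468 genes. On replicate 1 it did so for 13 of 20, 65.0%, beside 79.7% of 2691 genes. The median difference of the members was 0.25 on replicate 3 and 0.38 on replicate 1, against 0.31 and 0.96 for all genes. High positive differences on replicate 3 belonged to rad24 at 1.4998 and rad9 at 1.33, and the most negative to rhp14 at -1.502. On replicate 1 rfc4 at 3.22 and rhp26 at 2.99 were highest.

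**Figure D5:**
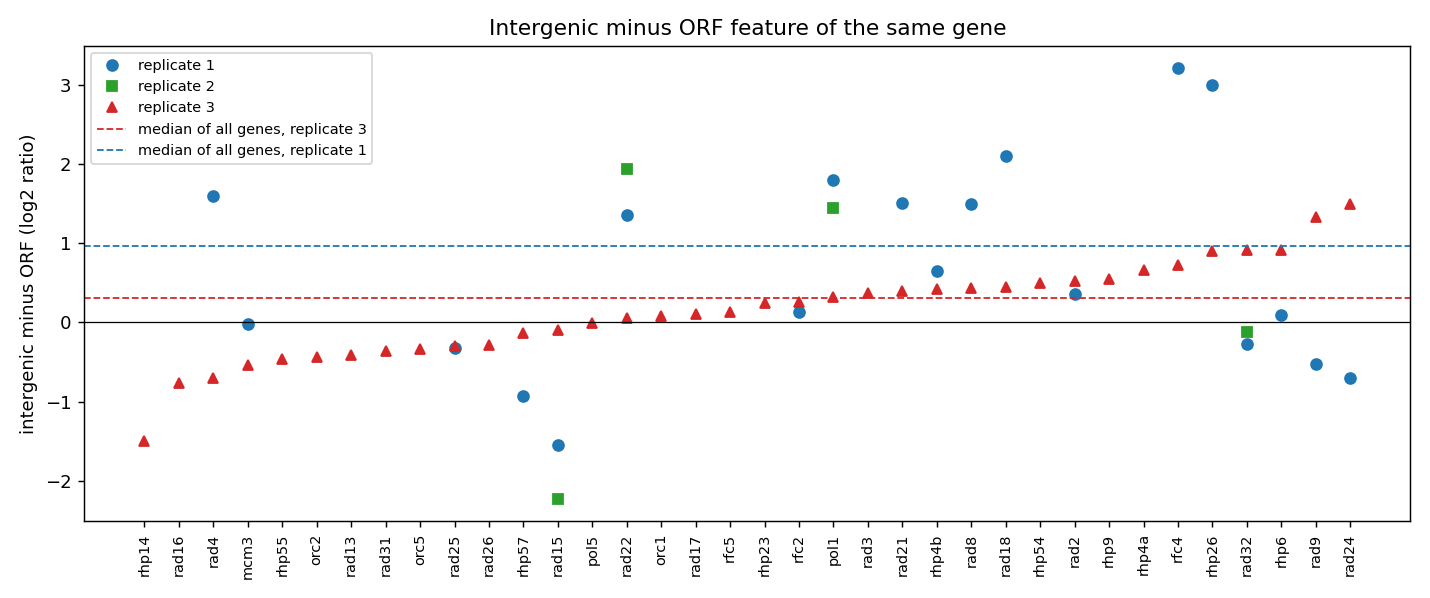
Intergenic minus ORF log2 ratio (y axis) of 37 member genes (x axis), ordered by replicate 3, with 1 gene not drawn, 1 symbol per array and dashed lines at the median of all genes on replicates 1 and 3. Replicates 1 and 3 fall on opposite sides of 0 for rad4, rad9, rad24 and rad32, and on the same side for pol1, rfc4 and rhp26.

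The member gaps included 27 divergent ones, from which the neighbouring gene is read the other way, and 16 tandem ones. For 24 of the divergent gaps replicate 3 also measured the feature named for the neighbour. The features of one gap differed by a median of 0.38 and at most 1.43, shared a sign in 12 of 24 gaps, and gave a Spearman rho of 0.04. Across all 1054 divergent gaps rho was 0.51. These points share one array, and the products of one gap need not cover the same bases.

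Further repair and replication genes, whose array names carry other prefixes, gave a count to set beside the members. This set is separate by array name and not by locus. Its gap named for dfp1 is that of the member gene rad35, and its gap named for suc22 is the one marked missing for mcm7. Of 111 listed genes 56 were on the arrays. limma called 3 of the 11 gaps so measured above and 0 below, and 1 of 31 ORFs above and 7 below. Over all features the shares were 21.6% of gaps above and 15.4% of ORFs below. The 3 highest gaps were those before dna2, a nuclease and helicase of Okazaki fragment processing, at 1.55, 1.73 and 1.14 (mean 1.48 ± 0.30, limma adjusted p = 0.000724), pku70, a Ku subunit of end joining, at 1.47, 1.99 and 0.79 (mean 1.42 ± 0.60, adjusted p = 0.00124), and spd1, an inhibitor of ribonucleotide reductase, at 1.01, 0.24 and 1.53 (mean 0.93 ± 0.65, adjusted p = 0.0483). The spd1 ORF was the one called above, with a mean of 1.47 ± 0.40 (adjusted p = 0.000783). The 7 ORFs called below were nth1, lig4, swi1, cdc20, suc22, cdc27 and top3, with means from -1.67 for nth1, a DNA glycosylase of base excision repair, to -0.98 for top3, a topoisomerase. The means of the 3 gaps became 0.71, 0.89 and -0.09 when replicate 3 was turned. Among genes named cdc, 0 of 3 gaps were called, and 0 of 14 ORFs were called above and 2 below. These 2 are cdc20 and cdc27, which are also among the 7 ORFs above, so the sets overlap.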

How the data were processed

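Tup11-GFP chromatin was compared with input on 3 two-colour arrays. The authors deposited scanner tables with spot intensity per channel, quantified in TIGR Spotfinder and, judging by the values, likely already corrected for local background. They also deposited value tables of log10 single-channel signals, per the file headers and a match to the scanner tables; in them ORF and intergenic names are exchanged, so the scanner tables' names were used. No software version or genome build is given in the sources used here. Spots at 0 in either channel, controls and spots marked missing were left out. Duplicate spots were averaged as log2 ratios and centred on each array's median. Each feature's mean was tested against 0 with limma 3.58.1 (R 4.3.3), on all features measured on all 3 arrays, with Benjamini-Hochberg adjustment over all of them and a threshold of 0.05. The number of arrays limits the precision. In the first comparison the p-values rest on a spread between arrays pooled over all features. They do not measure how well the arrays agree on a single feature. The test was run on simulated data with independent noise of the same SD for every feature and array. It recovered 23.5% of features shifted by 1 log2 unit and 99.0% of those shifted by 2. The simulation did not include differences between the arrays or the link of ratio to input, so it cannot show how the test does with these. Features were matched by name to ASM294v3 (94.6% of 10009, and all 85 members). ORF features carry the extent of the coding sequence and intergenic features the whole gap 5′ of the named gene. Per-array values are given for members past a test and for the 5 highest and 5 lowest tested of each kind by mean. The values of other members, those on replicate 3 alone among them, were chosen after they were seen. The members, role groups and lists were chosen with earlier results of these data known. The single values of 1 member gene are not reported here. Alternatives covered the direction of replicate 3, each array left out, background, centring, loess, low signals, base composition and the prior.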

Additional observations from a re-analysis of the deposited data

How the results depend on the processing

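No paired analysis was possible because there is 1 group. The array series as a random block could not be fitted with 3 arrays. The background subtracted a second time and the requirement that precipitate exceed empty spots were chosen after seeing the data. Counts are ORFs above and below, from 1 and 4. With replicate 3 turned they were 0 and 0, with normexp 1 and 2, with loess 1 and 0, with input at 0 set to a low signal 0 and 4, with background subtracted again 0 and 4, with low input signals left out 0 and 4, with a trended prior 1 and 1, and with precipitate above empty spots 0 and 0 of the 1 member left. Leaving out 1 array gave 0 to 1 above and 0 to 8 below, and 0 to 1 gaps in either direction. Over all 4285 features it gave 45 to 421 above and 6 to 874 below. The pair calls, 1 above and 1 below, became 0 and 0 with replicate 3 turned, normexp, loess, a second background subtraction and low signals left out, and 1 and 0 of 25 genes with input at 0 set low, where neither pol1 nor rad15 passed (adjusted p = 0.164 and 0.131). Leaving out 1 array gave 0 to 2 above and 0 to 1 below. The binding list, 0 gaps and 1 ORF, held 6 gaps and 3 ORFs with input at 0 set low, 1 and 2 with base composition and length removed, 1 and 0 with background subtracted again, 0 and 2 with replicate 3 turned, and no ORF at the 95th percentile or with precipitate above empty spots. Setting input at 0 low left 69 members and 8265 features with a ratio on all arrays, from 33 and 4285. Its 6 gaps and 3 ORFs therefore do not compare directly with the main list. The mean of the gap medians, 0.14, was 0.74 with normexp, 0.30 centred on shared features, 0.32 with background subtracted again and -0.12 with base composition and length removed. That of the ORF medians, -0.22, was -0.60 with normexp and 0.019 with base composition and length removed. Leaving out 1 array gave 0.09 to 0.19 and -0.31 to -0.10. Signs reversed, none of them past the test, for the gaps of mcm2 (0.016 turned), rad24 (-0.70 turned, -0.17 with input set low), rad32 (-0.26 turned), rad9 (-0.15 turned, -0.10 with input set low, -0.0083 with base composition removed), rad22 (-0.75 with background subtracted again, -0.10 with base composition removed) and rad31 (0.062 with loess), and for the ORFs of orc5 (-0.23 with loess) and rhp4b (-0.23 with loess). With 1 array left out the gap of mcm2 ran from -0.63 to 0.18, that of rad24 from -0.34 to 0.62, that of rad31 from -0.67 to 0.024, and the rhp4b ORF from -0.24 to 0.89. The causes were not tested, except that turning an array shrinks what the arrays share by construction.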
